A study of Rattus norvegicus with 6 samples.

Results

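The hepatic organic ion and bile transporters examined here were the uptake carriers Slc10a1, Slco1a1, Slco1b2, Slco2b1 and Slc22a7 and the canalicular export pumps Abcc2 and Abcb4, 7 genes given by name and found by their gene symbol. A locus carried the symbol of 6 of them, among 33022 loci in all and 10201 loci that were compared, namely those that carried a symbol, were estimated without failure and averaged 1 FPKM or more. FPKM counts fragments per kilobase of transcript, scaled to the size of the library, and is a level per transcript length. No locus was named Abcb4, and that gene was not analysed here. The livers came from male obesity-prone Sprague Dawley rats of 160 to 190 g at the start, which ate a control diet (CD) or, for 2 weeks, a Western diet (WD) richer in milk fat and sucrose with added cholesterol, and were then fasted overnight and refed their own diet. All rats had eaten the CD before the diets diverged, and their age is not given in the sources used here. Liver homogenates were separated on sucrose gradients into a light fraction of mRNAs with 3 or fewer ribosomes and a heavy fraction of mRNAs with 4 or more. For each diet, total, light and heavy RNA each gave 1 library of RNA pooled from 3 rats, which makes 6 libraries, so no value has a replicate, no p-value was computed, and a difference between the diets cannot be told apart from a difference between 2 pools of rats.

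Hepatocytes are polarized cells. They take up bile acids, bilirubin, hormones and drugs from sinusoidal blood across the basolateral membrane and export bile acids, phospholipid and conjugated organic anions across the canalicular membrane into bile. Slc10a1 encodes the sodium-dependent bile acid carrier NTCP, and the Slco genes encode sodium-independent organic anion transporting polypeptides (OATPs). Slc22a7 encodes the organic anion transporter OAT2, Abcc2 the ATP-driven pump MRP2, and Abcb4 the phospholipid floppase MDR2. Their proteins are made on ribosomes of the rough endoplasmic reticulum, and an mRNA that carries many ribosomes sediments in the heavy fraction.

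The promoters of all 7 genes (250 bases before to 50 after the start) were found in the RefSeq annotation of the assembly GRCr8. The letters AGGTCA, a half-site of nuclear receptors, occurred on either strand in 3 of them and in 16.2% of 33469 promoters. They are shown because nuclear receptors are known regulators of liver carriers and several of their genes were measured in the same libraries. A match is a description of the letters and not a binding site. In each 30-base window the match is in capitals and the sequence is read along the gene's strand.
Slc10a1 (chr6:106358026-106358055, minus strand): aggcagtcacagAGGTCAggaaacttgagc
Slco1b2 (chr4:176282494-176282523, plus strand): tgtgtaggacagTGACCTgcagagatagtt
Abcc2 (chr1:252613708-252613737, plus strand): gaagtgatgcatAGGTCActctatcttttt
The match began at -99 relative to the start of Slc10a1 and at -155 relative to that of Abcc2. In Slco1b2 it lay on the opposite strand, at -78. Slc10a1 had another match at -197 and Abcc2 another on the opposite strand at -115. The letters TATAAA were found in the promoter of Slco1b2 at -231 and in 14.2% of all promoters, and did not overlap an AGGTCA match. The distances and letters are those of GRCr8, whereas all expression values below use loci of the assembly Rnor_6.0.

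The 6 transporters ranked between the 66.2 and the 98.6 percentile of the loci compared (the share of loci with a lower FPKM, lowest and highest over members and libraries). In total RNA of both diets the order of FPKM levels was Slco1b2, Abcc2, Slc10a1, Slco1a1, Slc22a7 and Slco2b1. The CD and WD light fractions had Slc10a1 before Abcc2, and in both heavy fractions Slco1a1 stood before Slc10a1. For 4 members (Slc10a1, Slco1a1, Slc22a7 and Abcc2) the number of sequenced fragments could be inferred from the FPKM values, which were whole numbers of fragments times 1 step for the gene and 1 factor for the library. Between 111 and 1248 fragments lay behind each value. From these numbers 95% intervals were computed (exact Poisson for a level, Clopper-Pearson for a ratio, the conditional odds ratio for a ratio of ratios), which cover counting error only, since reads amplified without molecular barcodes do not each stand for a separate molecule, and which compare libraries and not diets. By these intervals Abcc2 and Slc10a1 could not be ordered in total RNA or in the CD light fraction, nor Abcc2 and Slco1a1 in either light fraction. Slc10a1 and Slco1a1 could not be ordered in the CD light fraction either. In the heavy fractions the intervals of Abcc2, Slco1a1, Slc10a1 and Slc22a7 did not overlap. The bounds that Cufflinks, the software of the authors, attached to each value were much wider. Its upper bound was 1.77 to 2.17 times the value, its lower bound was 0 for 11 of 36 values, and CD and WD bounds, as well as heavy and light bounds, overlapped for every member.

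**Figure D1:**
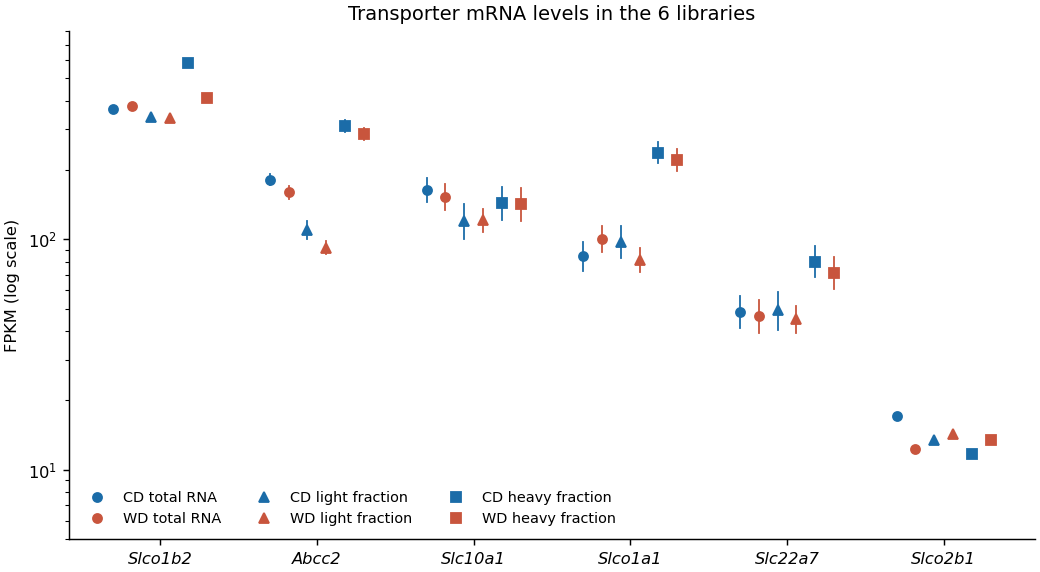
Levels of the 6 transporter mRNAs in FPKM (log scale) in each library, CD in blue and WD in red, with circles for total RNA, triangles for the light and squares for the heavy fraction. Bars are 95% counting intervals where fragment numbers were inferred; Slco1b2 and Slco2b1 have none. Slco1b2 is the highest in every library and Slco2b1 the lowest.

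Slc10a1 (chromosome 6, 104617729 to 104631355), which carries most conjugated bile acids from blood into the hepatocyte, varied least between libraries. Its level was 164 FPKM in CD and 152 FPKM in WD total RNA. The light fraction held 119.8 FPKM in CD and 121 FPKM in WD, and the heavy fraction 144 and 142 FPKM. The highest of the 6 values was 1.37 times the lowest, the smallest range among the transporters. The values rest on 137 to 300 fragments per library.

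Slco1a1 (chromosome 4, 176158639 to 176231344), an OATP of wide substrate range in the rodent liver, was mainly set apart by the heavy fraction. In total RNA it was at 84.5 FPKM in CD and 100.4 FPKM in WD, and in the light fraction at 97.4 and 81.5 FPKM. In the heavy fraction it was at 237 FPKM in CD and 221 FPKM in WD. Both heavy values lay above the other 4 without overlap of the counting intervals.

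Slco1b2 (chromosome 4, 175814117 to 175881768), the rodent counterpart of the human OATP1B carriers and a liver-restricted uptake route for bilirubin conjugates and many drugs, was the most abundant member. It was at 369 FPKM in CD and 379.9 FPKM in WD total RNA and at 341 and 335 FPKM in the light fractions. In the heavy fraction it was at 583 FPKM in CD and 411 FPKM in WD. Only its CD heavy value stood well away from the others, and without fragment numbers no counting interval could be given. The gene lies in a cluster of OATP genes on chromosome 4, where it and Slco1a1 are separated by 277 kb. Slco1a4 between them, another OATP, had a mean of 50.2 FPKM over the 6 libraries, whereas the neighbouring Slco1a6 had a mean of 0.431 FPKM and Slco1a2 was listed at 0 in every library. How the authors' counting divided reads among these related genes was not tested.

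Slco2b1 (chromosome 1, 164623598 to 164671577), an OATP found in many tissues besides liver, was the least abundant. Its level in total RNA was 17.1 FPKM in CD and 12.3 FPKM in WD, in the light fraction 13.4 and 14.3 FPKM, and in the heavy fraction 11.7 and 13.4 FPKM. CD total RNA had the highest value and the other 5 lay close together. No fragment numbers could be inferred for it.

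Slc22a7 (chromosome 9, 16924519 to 16931766), a basolateral carrier of small organic anions, was at 48.5 FPKM in CD and 46.3 FPKM in WD total RNA. The light fraction held 49.2 FPKM in CD and 44.9 FPKM in WD, and the heavy fraction 80.0 and 71.6 FPKM. The values of total RNA and of the light fraction were thus close to each other, and both heavy values were above them.

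Abcc2 (chromosome 1, 263554452 to 263613252), which pumps bilirubin glucuronides and glutathione conjugates into bile, varied most between libraries, with the highest value 3.38 times the lowest. Total RNA held 182 FPKM (1147 fragments) in CD and 160.1 FPKM (967 fragments) in WD. The light fraction held 110.05 FPKM (475 fragments) in CD and 92.0 FPKM (863 fragments) in WD. The heavy fraction held 311 FPKM (1248 fragments) in CD and 287 FPKM (1180 fragments) in WD. The order was light below total below heavy in both diets, with no overlap of the counting intervals between the 3 kinds of RNA.

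The gene of the phospholipid floppase, Abcb4, lies in the RefSeq annotation of GRCr8 between Crot and Abcb1b, followed by Abcb1a and Rundc3b. Among the loci of the authors, a single locus of 292 kb named Abcb1a (chromosome 4, 22133520 to 22425515) lay between Crot and Rundc3b. Its levels were 30.9 FPKM in CD and 37.4 FPKM in WD total RNA, 25.2 and 26.5 FPKM in the light and 36.7 and 39.1 FPKM in the heavy fraction. Whether this locus also holds reads of Abcb4 was not tested, and its values are not counted with the transporters.

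Distribution between the heavy and the light fraction was compared within each diet, in libraries that carry the same rat numbers in their titles. The ratio is one of FPKM values, each relative to the other mRNAs of its library, and not of molecules. It was at least 1.5 for 4 of the 6 transporters in CD and for 3 in WD, compared with 32.9% and 31.4% of all loci compared. It was at most 0.75 for 0 transporters in either diet, compared with 36.6% of all loci in CD and 38.5% in WD. The median log2 ratio of the members was 0.74 in CD and 0.48 in WD, beside medians over all loci of 0.01 and 0.00, but with each library rescaled to the same median of 12 hepatocyte markers it was -0.92 and -1.03. The median FPKM of those markers, mostly mRNAs of secreted plasma proteins, was 1432 in the light and 4528 in the heavy fraction of CD and 1798 and 5139 in those of WD. The median of the markers' own log2 ratios was 1.25 in CD and 0.94 in WD. Among the 4069 loci that averaged 10 FPKM or more, as the members do, the share at or above 1.5 was 34.9% in CD and 37.1% in WD. Of the 6 transporters, 2 lay above the hepatocyte marker median in each diet, namely Slco1a1 and Abcc2.

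Abcc2 had the highest heavy to light ratio, 2.82 (95% interval, 2.54 to 3.14) in CD and 3.12 (2.85 to 3.41) in WD. Slco1a1 followed at 2.44 (2.01 to 2.96) and 2.71 (2.30 to 3.18). Slc22a7 was at 1.63 (1.27 to 2.09) in CD and 1.60 (1.29 to 1.97) in WD. These 3 mRNAs, those of an export pump, an OATP and an organic anion carrier, had intervals above 1 in both diets. For Slc10a1 the ratio was 1.20 (0.946 to 1.52) in CD and 1.18 (0.964 to 1.44) in WD, with 1 inside both intervals. Slco1b2 was at 1.71 in CD and 1.23 in WD, and Slco2b1 at 0.873 and 0.941, without intervals. The transporters thus differed among themselves in a similar order in both diets, apart from Slco1b2.

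The difference between members was taken for each pair of the 4 with fragment numbers, in each diet, which gave 12 comparisons. The interval of the ratio of ratios excluded 1 in 9 of them. The bile acid carrier Slc10a1 had 0.425 times the heavy to light ratio of Abcc2 in CD (0.327 to 0.553) and 0.378 times in WD (0.303 to 0.470). Against Slco1a1 it was at 0.492 (0.362 to 0.671) in CD and 0.435 (0.336 to 0.563) in WD. Slco1a1 and Abcc2 could not be told apart, at 0.864 (0.693 to 1.08) in CD and 0.868 (0.722 to 1.04) in WD. Slc10a1 against Slc22a7 was at 0.738 in both diets, with 1 inside the interval in CD (0.522 to 1.04) and just outside it in WD (0.551 to 0.989). These comparisons within a library do not depend on how libraries are scaled.

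**Figure D2:**
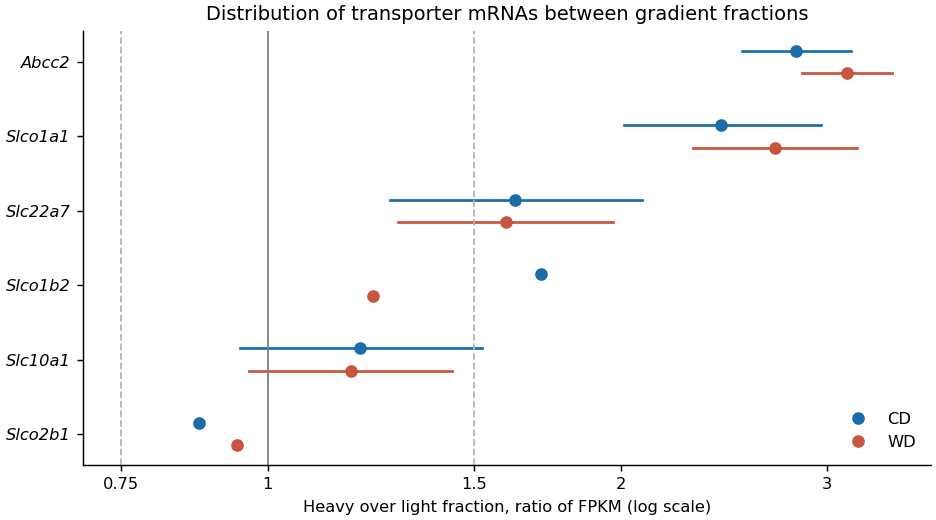
Ratio of heavy to light FPKM (log axis) of each transporter in CD (blue) and WD (red), with 95% counting intervals where fragment numbers were inferred. The solid line marks 1 and the dashed lines 0.75 and 1.5. Abcc2 and Slco1a1 lie above 2 in both diets and Slco2b1 just below 1. With libraries rescaled to the median FPKM of the hepatocyte markers, every ratio except that of Abcc2 in WD falls below 1. Against the markers' own median ratio, Abcc2 and Slco1a1 are higher in both diets.

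Total RNA gave a second reference for the heavy fraction, chosen after the values above were known. Reads of total RNA and of the fractions may have been aligned by different routes, since the methods of the study describe a perfect-match route for ribosome profiling, so these ratios are less certain. Heavy over total RNA was 1.71 (1.58 to 1.85) for Abcc2 in CD and 1.79 (1.64 to 1.95) in WD, and 2.81 (2.35 to 3.36) and 2.197 (1.85 to 2.61) for Slco1a1. For Slc10a1 it was 0.877 (0.715 to 1.07) and 0.932 (0.757 to 1.14). The light fraction held less Abcc2 than total RNA, at 0.606 (0.543 to 0.675) in CD and 0.574 (0.523 to 0.630) in WD. It also held less Slc10a1, at 0.731 (0.591 to 0.901) and 0.791 (0.666 to 0.941). On the authors' scale Abcc2 was thus above its total RNA level in the heavy and below it in the light fraction. Rescaling to hepatocyte markers turned the light to total ratio to 1.34 in CD and 1.10 in WD for Abcc2 and to 1.62 and 1.52 for Slc10a1. For Slco1a1 the light to total ratio on the authors' scale was 1.15 (0.928 to 1.43) in CD and 0.812 (0.680 to 0.972) in WD.

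The effect of the diet was compared in each kind of RNA as the WD to CD ratio, with the same limits of 1.5 and 0.75. In total RNA, 0 of the 6 transporters reached 1.5, compared with 17.7% of all loci, and 1 was at or below 0.75 (Slco2b1, ratio 0.723), compared with 22.7%. In the light fraction the counts were 0 and 0, beside 25.9% and 26.8% of all loci. In the heavy fraction they were 0 and 1 (Slco1b2, ratio 0.706), beside 21.7% and 25.8%. Among the 4069 loci of 10 FPKM or more, 8.77% reached 1.5 and 16.2% were at or below 0.75 in total RNA, 17.1% and 27.2% in the light and 13.3% and 19.2% in the heavy fraction. With libraries rescaled to the same sum, 0 members were at or below 0.75 in total RNA and 3 in the light fraction, which were Slco1a1, Slc22a7 and Abcc2 at ratios of 0.655, 0.713 and 0.654, where the median log2 change of all loci was itself -0.29. The study sets these limits for ribosome density, with CD over WD. In that direction Slco2b1 in total RNA was at 1.38 and Slco1b2 in the heavy fraction at 1.42, and 0 of the 6 members passed either limit in any of the 3 kinds of RNA, so both calls rest on the direction of the ratio. Of all loci, 17.0% in total RNA and 20.6% in each fraction were at or above 1.5 in that direction, and 23.9%, 32.2% and 26.9% at or below 0.75. The median log2 change of the members was -0.09 in total RNA, -0.08 in the light and -0.11 in the heavy fraction, compared with 0.02, 0.02 and -0.02 over all loci.

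Among the basolateral carriers, Slc10a1 had WD to CD ratios on the authors' scale of 0.931 (0.780 to 1.11) in total RNA, 1.01 (0.820 to 1.24) in the light and 0.989 (0.786 to 1.25) in the heavy fraction. After rescaling, its light fraction ratio was 0.788 (0.642 to 0.972) with equal sums and 0.802 (0.653 to 0.989) with hepatocyte markers. The markers' own median log2 change in the light fraction was 0.03. Slco1a1 was at 1.19 (0.977 to 1.45) in total RNA, 0.837 (0.686 to 1.03) in the light and 0.929 (0.798 to 1.08) in the heavy fraction. Slc22a7 was at 0.954 (0.757 to 1.20), 0.912 (0.722 to 1.16) and 0.895 (0.714 to 1.12). Each of these intervals included 1 on the authors' scale, and together they ran from 0.686 to 1.45. Slco1b2 was at 1.03 in total RNA, 0.982 in the light and 0.706 in the heavy fraction, and Slco2b1 at 0.723, 1.07 and 1.15. Neither of the latter has an interval, and their Cufflinks bounds overlapped between the diets.

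Abcc2 was the transporter with the most fragments and the narrowest intervals. Its WD to CD ratio was 0.882 (0.808 to 0.961) in total RNA and 0.836 (0.746 to 0.937) in the light fraction, with 1 outside the interval. In the heavy fraction it was 0.923 (0.852 to 1.00). With the libraries rescaled to the same FPKM sum, the total RNA ratio was 0.942 (0.864 to 1.03), so whether Abcc2 was lower in WD total RNA rests on the scaling, and the heavy ratio was 0.908 (0.837 to 0.984). Rescaling to the hepatocyte marker median put it at 0.809 (0.742 to 0.882) in total RNA. That median, which rests on the middle-ranked markers, was 3173 FPKM in CD and 3457 FPKM in WD total RNA. Of the 12 markers, however, 9 were lower in WD total RNA, with a median log2 change of -0.08, so this rescaling does not follow the markers' usual change. The Abcc2 ratios given above are inside the limits of 0.75 and 1.5. In the light fraction Abcc2 was outside them after rescaling, at 0.654 (0.584 to 0.733) with equal sums and 0.665 (0.594 to 0.746) with hepatocyte markers. The marker median was 1432 FPKM in the CD and 1798 FPKM in the WD light fraction. The markers' own median log2 change there was 0.03, with 6 higher and 6 lower in WD, so the latter value rests on the middle-ranked markers.

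**Figure D3:**
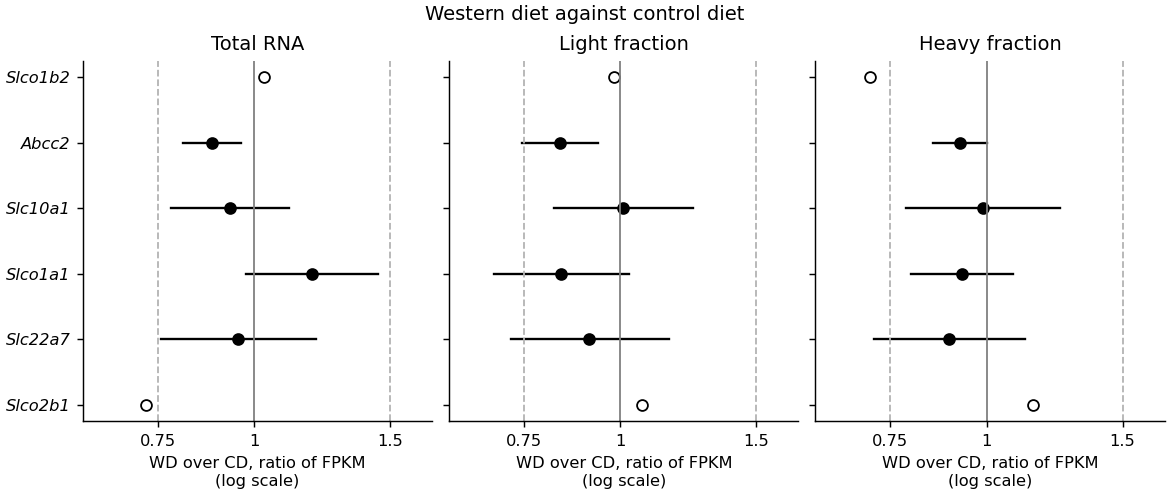
WD to CD ratio of FPKM (log axis) of each transporter in total RNA, the light and the heavy fraction. Filled points carry 95% counting intervals, open points have no fragment numbers, and lines mark 0.75, 1 and 1.5. Slco2b1 in total RNA and Slco1b2 in the heavy fraction are the values below 0.75, and Abcc2 in total RNA and the light fraction has intervals below 1 on the authors' scale.

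The ribosome density change was taken as the heavy to light ratio in WD over that in CD. It was at least 1.5 for 0 transporters, compared with 27.7% of loci, and at most 0.75 for 1, compared with 36.1%. That member was Slco1b2, at 0.719, where the heavy fraction held 583 FPKM in CD and 411 FPKM in WD and the light fraction 341 and 335 FPKM. As CD over WD it was at 1.39 and passed neither limit, and 0 of the 6 members did, compared with 30.9% of loci at or above 1.5 and 32.9% at or below 0.75. With heavy over total RNA it was at -0.54 on the log2 scale, but with libraries rescaled to the same sum it was at -0.15 and no longer below the limit. Abcc2 was at 1.11 (0.960 to 1.27), Slco1a1 at 1.11 (0.861 to 1.43), Slc10a1 at 0.982 (0.719 to 1.34), Slc22a7 at 0.982 (0.707 to 1.36) and Slco2b1 at 1.08. On the authors' scale no density change of a member with fragment numbers was detectable at this depth. With equal sums, Abcc2 was at 1.39 (1.21 to 1.60) and Slco1a1 at 1.40 (1.08 to 1.80), where the median log2 density change of all loci was itself 0.28. With hepatocyte markers, Abcc2 was at 1.22 (1.06 to 1.41) and Slco1a1 at 1.23 (0.953 to 1.58), where that median was 0.097. The markers' own median log2 density change was 0.03, with 6 higher and 6 lower in WD, so these 2 values rest on the middle-ranked markers that set the scaling. Whether the density of Abcc2 changed thus rests on the scaling.

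The other genes of hepatic transport were grouped in lists. Of the 15 loci found for other SLCO and SLC10 carriers, 7 were compared and 4 were listed at 0 in all libraries. In total RNA 1 of the 7 reached 1.5 and 3 were at or below 0.75, with a median log2 change of -0.08, beside 17.7% and 22.7% of all loci. The abundant members of this group were Slco2a1, a prostaglandin carrier, and Slco1a4. Slco1a4 was at 39.1 FPKM in CD and 45.7 FPKM in WD total RNA and, like Slco1a1, higher in the heavy (66.6 and 77.8 FPKM) than in the light fraction (34.2 and 37.8 FPKM). Slco2a1 was lower in the heavy (34.6 and 42.9 FPKM) than in the light fraction (48.3 and 55.3 FPKM). The apical bile acid carrier Slc10a2, Slc10a3 and Slco3a1 had means below 3 FPKM, and Slc10a5, an orphan member, was at 12.9 FPKM in CD and 7.97 FPKM in WD total RNA. The values of Slc10a5 rest on 22 and 13 fragments (ratio interval, 0.286 to 1.28) and those of Slc10a3 on 5 and 2 (0.0398 to 2.56). Both intervals include 1, and Slco3a1, also at or below 0.75, has none.

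Of the 20 other SLC22, SLC47 and SLC17 genes, 13 were compared. In CD 5 had a heavy to light ratio of at least 1.5 and 4 of at most 0.75, with a median log2 ratio of 0.31, shares close to the 32.9% and 36.6% of all loci. Slc22a8, the organic anion carrier OAT3, was at 112 FPKM in the light and 139.8 FPKM in the heavy fraction of CD. By diet in total RNA, 1 gene of the 13 reached 1.5 and 1 was at or below 0.75, beside 17.7% and 22.7% of all loci. The first was Slc17a1, a phosphate and organic anion carrier, at 6.57 FPKM in CD and 11.5 FPKM in WD, which rest on 9 and 15 fragments and give a ratio interval of 0.714 to 4.52 that includes 1.

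Canalicular export genes other than the members numbered 9 with a locus, 8 of them compared. In CD 4 had a heavy to light ratio of at least 1.5 and 2 of at most 0.75, with a median log2 ratio of 0.66, beside 32.9% and 36.6% of all loci. Abcb11, the bile salt export pump, resembled Abcc2. It was at 157 FPKM in CD and 141 FPKM in WD total RNA, 101 and 82.0 FPKM in the light and 359 and 322 FPKM in the heavy fraction. Its WD to CD ratio had intervals of 0.815 to 0.994 in total RNA, 0.713 to 0.920 in the light and 0.827 to 0.972 in the heavy fraction, all below 1 on the authors' scale. With equal sums the interval in total RNA was 0.871 to 1.06. Tmem30a, a partner subunit of phospholipid flippases, had the opposite distribution, with 168 FPKM in the light and 30.1 FPKM in the heavy fraction of CD. Abcg2, an exporter of urate and drugs, was at 10.2 FPKM in CD and 3.24 FPKM in WD total RNA, 5.18 and 3.85 FPKM in the light and 13.9 and 6.11 FPKM in the heavy fraction, lower in WD in each.

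The sinusoidal efflux genes had 3 compared members, Abcc6, Abca1 and Abcc4, and each had a heavy to light ratio of at least 1.5 in both diets, beside 32.9% of all loci in CD and 31.4% in WD. By diet 0 of the 3 passed either limit in total RNA, the light or the heavy fraction, where between 17.7% and 26.8% of all loci passed a given limit. Abcc6 had 32.8 FPKM in CD and 33.0 FPKM in WD total RNA. The basolateral efflux pump Abcc3 had a mean of 0.50 FPKM and of the genes for the subunits of the basolateral bile acid exporter, Slc51a was listed at 0 in 4 libraries and Slc51b in 6. Among the 7 membrane scaffolds compared, 4 had a heavy to light ratio of at least 1.5 in CD and 1 of at most 0.75, beside 32.9% and 36.6% of all loci. Slc9a3r1, a PDZ scaffold that anchors canalicular pumps, was at 109.7 FPKM in CD and 82.9 FPKM in WD total RNA. Rdx, the actin linker radixin, was at 19.0 FPKM in the light and 6.55 FPKM in the heavy fraction of CD, and at 36.0 and 7.78 FPKM in WD.

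Of 12 transcriptional regulators of these transporters, 0 reached 1.5 and 2 were at or below 0.75 in WD total RNA, with a median log2 change of 0.07, beside 17.7% and 22.7% of all loci. Hnf4a, a master regulator of hepatocyte genes, was at 366 FPKM in CD and 421 FPKM in WD total RNA. The bile acid receptor gene Nr1h4 was at 26.7 FPKM in CD and 36.3 FPKM in WD total RNA, and Nr1i2, the gene of the xenobiotic receptor PXR, at 32.0 and 23.1 FPKM. Foxa2 was at 7.35 and 2.26 FPKM. Nr0b2, the repressor SHP, was listed at 0 in the CD heavy fraction and was at 7.69 and 7.03 FPKM in total RNA. Rxra, the common partner of nuclear receptors, had a higher FPKM in the light fraction of CD (65.2) than in the heavy fraction (23.1).

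Bile acid synthesis and conjugation supplies the substrates of several of these transporters. Of its 12 genes, 2 reached 1.5 and 0 were at or below 0.75 in total RNA, with a median log2 change of -0.03, beside 17.7% and 22.7% of all loci. Cyp7a1, the rate-limiting enzyme of bile acid synthesis from cholesterol, was at 22.2 FPKM in CD and 50.6 FPKM in WD total RNA. In the light fraction it was at 30.6 and 58.8 FPKM, and in the heavy fraction at 28.4 and 56.6 FPKM. The WD library was higher in each kind of RNA, with ratio intervals of 1.75 to 2.98, 1.5 to 2.48 and 1.49 to 2.70, all of which stayed above 1 after either rescaling. Cyp8b1, which sets the share of cholic acid, was at 282 FPKM in CD and 212 FPKM in WD total RNA, and Baat, which conjugates bile acids with taurine or glycine, at 194 and 205 FPKM. Baat had 80.9 FPKM in the light and 868 FPKM in the heavy fraction of CD, a log2 ratio of 3.42, the highest of the list in CD. In WD it had 180 and 926 FPKM, a log2 ratio of 2.36, below that of Cyp27a1 (2.48).

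**Figure D4:**
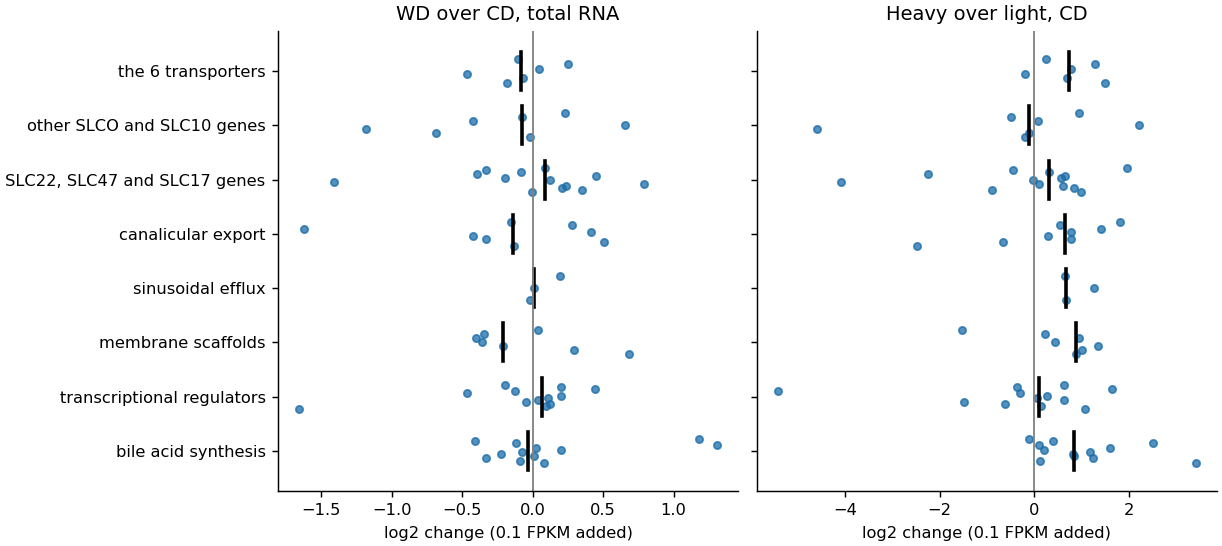
Log2 change of each compared gene (points) in the lists of transport genes, after 0.1 FPKM was added, with the list median as a black bar, for WD over CD in total RNA (left) and heavy over light in CD (right). The 6 transporters lie between -0.46 and 0.25 by diet and between -0.19 and 1.496 between fractions; rescaling to hepatocyte markers would move the right panel to lower values throughout.

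The profile of the median transporter over the 6 libraries was nearest to those of Atp6ap2, Ubn1, Mfge8, Qrich1 and Acsl5 among 3908 loci that averaged 10 FPKM or more and whose symbol occurred once. The measure was the Euclidean distance of mean-centred log2 values over the 6 libraries, which was 0.182 for Atp6ap2 and 0.240 for Acsl5. Acsl5, an acyl-CoA synthetase, was at 76.0 and 79.1 FPKM in total RNA, 67.5 and 60.8 FPKM in the light and 129 and 89.8 FPKM in the heavy fraction of CD and WD. Among the transporters themselves, the nearest profiles were Slco1b2 and Slc22a7 (distance 0.392), Slc10a1 and Slco2b1 (0.515) and Slco1a1 and Abcc2 (0.794). Slco1b2 lay nearest to the median profile (0.195) and Slco1a1 farthest from it (0.992).

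All 12 hepatocyte markers were found, with summed levels of 97510 FPKM in CD and 89150 FPKM in WD total RNA, 60660 and 52220 FPKM in the light and 143000.0 and 149400.0 FPKM in the heavy fraction. Of the 6 cholangiocyte markers with a locus, 3 (Krt7, Cftr and Spp1) were listed at 0 in every library, as was Col1a2 of the stellate cells. Only 1, Epcam, averaged 1 FPKM or more. It was at 0.694 FPKM in CD and 4.35 FPKM in WD total RNA, which rest on 1 and 6 fragments. The 8 Kupffer cell and macrophage markers summed to 89.3 FPKM in CD and 123 FPKM in WD total RNA, to 82.3 and 84.7 FPKM in the light and to 144 and 181 FPKM in the heavy fraction. All 8 had a higher value in WD total RNA, 3 in the light and 6 in the heavy fraction, and in total RNA the interval included 1 for each of the 7 with fragment numbers. Sinusoidal endothelial markers summed to 60.1 and 75.1 FPKM in total RNA, 52.6 and 59.6 FPKM in the light and 73.8 and 72.8 FPKM in the heavy fraction. Stellate cell markers summed to 34.0 and 45.1 FPKM in total RNA, 47.8 and 30.9 FPKM in the light and 39.1 and 58.8 FPKM in the heavy fraction. Blood markers summed to 545 FPKM in the WD light fraction and to between 30.1 and 107 FPKM in the other libraries. The WD light library was also the deepest, with 1.49 times the fragments per FPKM of CD total RNA, and had the largest FPKM sum over loci with a symbol (866676 beside 616030 to 699570 in the others). The part of these differences in the transporter values was not tested, and fewer cells of a type cannot be told apart from less RNA per cell in bulk liver.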

How the data were processed

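RNA of 3 rats per diet was pooled for each of 6 libraries (total, light and heavy RNA of CD and WD), so each group had 1 library. After depletion of ribosomal RNA, the authors used TopHat for alignment to Rnor_6.0 and Cufflinks and Cuffnorm for quantification; the annotation is not given in the sources used here. Each locus has an FPKM value per library as deposited, with a lower and an upper bound. No column was left unmapped.

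Groups were taken from the sample titles and protocols. Ratios and log2 changes were computed after adding 0.1 FPKM (printed ratios are of the FPKM values as deposited). Loci compared carried a symbol, had no failed estimate and averaged 1 FPKM or more. The limits of 1.5 and 0.75 are the study's for ribosome density, where they apply to CD over WD, and were used here as WD over CD or heavy over light. Fragment numbers were inferred as the smallest whole numbers (tolerance 0.01, up to 3000 fragments, under 0.01 accidental matches) and were found for 79.1% of the 10201 loci. A whole multiple of them would fit equally well and would narrow the intervals. The numbers may also be too large for some loci, which would make intervals too narrow. In CD total RNA, Cyp7b1 was given 78 fragments at 1.08 FPKM, beside 85 at 22.2 FPKM for Cyp7a1. Abcg2 was given 299 at 10.2 FPKM, beside 7 at 2.70 FPKM for Abcg5. Whether this affects a member was not tested. The members' largest deviation from a whole number was 0.0031. The procedure was tested on simulated data with 1 step for each gene, which cannot show numbers that are too large for loci without a single step. The depth of each library is known only in relative terms from these numbers. Intervals were computed at 95%. Members, lists and limits were chosen with earlier results of these data known. Named genes were the members, of each list up to 2 with the highest mean and up to 2 with the largest change either way in a comparison, and the 5 nearest profiles; Abcc3, Slc51a, Slc51b, Cyp8b1, Slco1a2, Slco1a6, Krt7, Cftr, Spp1 and Col1a2 were added after their values were seen, and some genes that the rule names are not reported here. Promoters came from RefSeq (GRCr8). Alternatives changed the pseudocount, the filter, the scaling, the reference of the heavy fraction and the direction of the ratio. The hepatocyte scaling used the median FPKM of 12 markers, which rests on the middle-ranked markers and can differ from the markers' own median change. The tools were scipy 1.17.1, numpy 2.4.6, pandas 2.3.3 and matplotlib 3.10.9 under Python 3.11.15. Protein sequences and read-level files were not used here.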

Additional observations from a re-analysis of the deposited data

Results flagged for a closer look

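The WD to CD ratio of Slco1a1 differed between the libraries of total RNA and of the light fraction by more than counting error, which with 1 pool of rats per diet does not show that an effect of the diet differed. The ratio in total RNA was 1.418 times that in the light fraction (95% counting interval, 1.07 to 1.88), with 84.5 and 100.4 FPKM in total RNA and 97.4 and 81.5 FPKM in the light fraction of CD and WD. It was the only 1 of 12 such comparisons, made over 4 genes and 3 pairs of RNA kinds, whose interval excluded 1, and neither WD to CD ratio excluded 1 on the authors' scale. With equal library sums the ratios were 1.27 (1.04 to 1.55) in total RNA and 0.655 (0.537 to 0.802) in the light fraction, where the median log2 change of all loci was itself 0.12 and -0.29. With hepatocyte markers they were 1.09 (0.897 to 1.33) and 0.667 (0.547 to 0.816), where the markers' own median log2 change was -0.08 and 0.03. For Slco1b2 the WD to CD ratio was above 1 in total RNA and below 1 in both fractions. The ratio in total RNA was 1.048 times that in the light and 1.458 times that in the heavy fraction, and these differences were not tested. For Slco2b1 it was below 1 in total RNA and above 1 in both fractions, with the total RNA ratio at 0.6811 times that in the light and 0.6324 times that in the heavy fraction, also not tested.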

How the results depend on the processing

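A pseudocount of 1 or 0.01 FPKM and changes centred on the median of all loci left the members' counts and medians as reported, within counting error. Taking no filter or a minimum of 10 FPKM alters only the loci beside which the members are set. The members' own values could not change under it. Rescaling the libraries to equal sums moved the median log2 change of the members to -0.43 in the light fraction, with 3 members at or below 0.75, the median heavy to light ratio in WD to 0.79 and the median density change to 0.37, and left 0 members at or below 0.75 in total RNA and in density change. Rescaling to the hepatocyte marker median moved the median change to -0.41 in the light fraction (3 members at or below 0.75) and -0.29 in the heavy fraction and left 0 members at or below 0.75 in density change. It turned the sign of the heavy to light median in both diets, to -0.92 in CD and -1.03 in WD, with 0 members at least 1.5 and 4 at or below 0.75 in each diet. Under it the log2 ratio was -0.38 for Slco1a1, -0.89 for Slco1b2, -0.96 for Slc22a7 and -0.16 for Abcc2 in CD, and -0.079 for Slco1a1 and -0.84 for Slc22a7 in WD. The markers' own median log2 heavy to light ratio was 1.25 in CD and 0.94 in WD, and Slco1a1 and Abcc2 lay above it in both diets. By diet their own median log2 change was -0.08 in total RNA, 0.03 in the light and 0.01 in the heavy fraction. Heavy over total RNA, chosen for the within-diet ratios after the data were seen, put 1 member at or below 0.75 in CD and 1 at least 1.5 in density change (Slco2b1). Applying the limits to CD over WD, as the study does for ribosome density and as added after the data were seen, left 0 members past a limit in total RNA, either fraction and density change. Summing loci of a symbol changed no level, which it cannot do where a symbol has 1 locus.

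Over all loci, the median log2 change shifted to 0.12 in total RNA, -0.29 in the light fraction and 0.26 for heavy to light in WD with equal sums, and to -1.52 and -1.48 for heavy to light with hepatocyte markers. The counts of loci at least 1.5 in total RNA were 1804 as reported, 2957 without a filter and 357 with a minimum of 10 FPKM, and those at most 0.75 were 2311 and, with the latter, 659. In the light fraction 2737 loci were at most 0.75 as reported, 4503 with equal sums, 4415 with hepatocyte markers and 1106 with a minimum of 10 FPKM, and 2642, 4282 and 696 were at least 1.5 as reported, without a filter and with that minimum. With that minimum, the counts in the heavy fraction went from 2214 to 541 at least 1.5 and from 2633 to 783 at most 0.75. For heavy to light they went from 3354 to 1422 and from 3738 to 1299 in CD and from 3200 to 1510 and from 3924 to 1305 in WD, and with hepatocyte markers to 634 and 8030 in CD and 561 and 8048 in WD. Density changes went from 2830 to 947 and from 3686 to 1122 with that minimum.

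No paired analysis was possible because each group had 1 library. Heavy and light libraries of the same rats were compared as a ratio within each diet, and a fit with the pool as a block that takes both diets as replicates of the fraction contrast was not run. Leaving out a library would leave a group empty. Slco1b2 and Slco2b1 have no fragment numbers, so the precision of the values that passed a limit by diet is known only from the wide Cufflinks bounds.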
